A study of Canis lupus familiaris with 10 samples.

Results

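The genes described here are 9 adhesion molecules, transcription factors and maturation proteins by which Langerhans cells and other dendritic cells are recognized. They were taken as a list of gene symbols, and 7 of them (EPCAM, CDH1, ID2, SPI1, BATF3, FSCN1 and LAMP3) were found under their symbol among the 23266 genes of the table. ZBTB46 was found as LOC485980, a name made from the gene ID that RefSeq gives to ZBTB46. ID2 had a second entry, LOC100686903, which carries the gene ID that RefSeq gives to ID2. RUNX3 was not analysed here. Transcripts were counted by QuantSeq 3′ RNA-Seq, which yields a single short fragment near the polyadenylated end of a transcript, in 10 formalin-fixed, paraffin-embedded (FFPE) skin tumors of as many untreated pet dogs of various breeds. All were canine cutaneous histiocytomas (CCH), benign tumors of the Langerhans cell lineage that regress on their own. The early tumors (n = 5) belong to group 1 of a published histological staging, before lymphocytes enter, and came from dogs aged 0.5 to 5 years where the age is given. The late tumors (n = 5) belong to group 3, are labeled as rich in lymphocytes, and came from dogs aged 1.5 to 9 years. Whole cross sections were extracted after adjacent tissue had been trimmed away, so that a library holds tumor cells together with infiltrating and skin cells.

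Langerhans cells are dendritic cells of the epidermis, where they are held among keratinocytes by E-cadherin, the product of CDH1. EPCAM encodes a further surface adhesion molecule that is typical of them and that many epithelia share. The transcription factor PU.1, encoded by SPI1, acts upstream of RUNX3 and ID2 in the formation of these cells. ZBTB46 marks classical dendritic cells, and BATF3 is required for the subset of these that presents engulfed antigen to cytotoxic T cells. When dendritic cells mature and leave for the lymph node, they loosen their contacts and express FSCN1, which encodes the actin bundling protein fascin, and LAMP3, which encodes a lysosomal membrane protein.

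Between 2973125 and 4439709 reads per library were assigned to genes, and 3 reads, which a count of 0 does not exclude, equaled 2.36 to 3.22 normalized read counts. The lineage markers CD1A6 and DLA-DRA (an MHC class II chain) had reads in every library, and the whole list of Langerhans markers is described beside the other lists, whereas CD207, which encodes langerin, was not analysed here. The summed level of 12 T-cell markers lay between 96.2 and 2856 in early and between 4105 and 7275 in late libraries, without overlap (exact two-sided permutation p = 0.00794, which is the lowest possible with 5 against 5). RNA quality differed as well, with a DV200 (share of RNA fragments above a length threshold) of 68.5% ± 2.46 in early and 73.2% ± 2.09 in late samples (SD, n = 5 each). No RNA extraction batch or index set mixed the stages, so that their effects cannot be told apart from stage. In bulk tissue, a lower value can mean fewer cells of a type or less RNA per cell, and these cannot be told apart either.

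**Figure D1:**
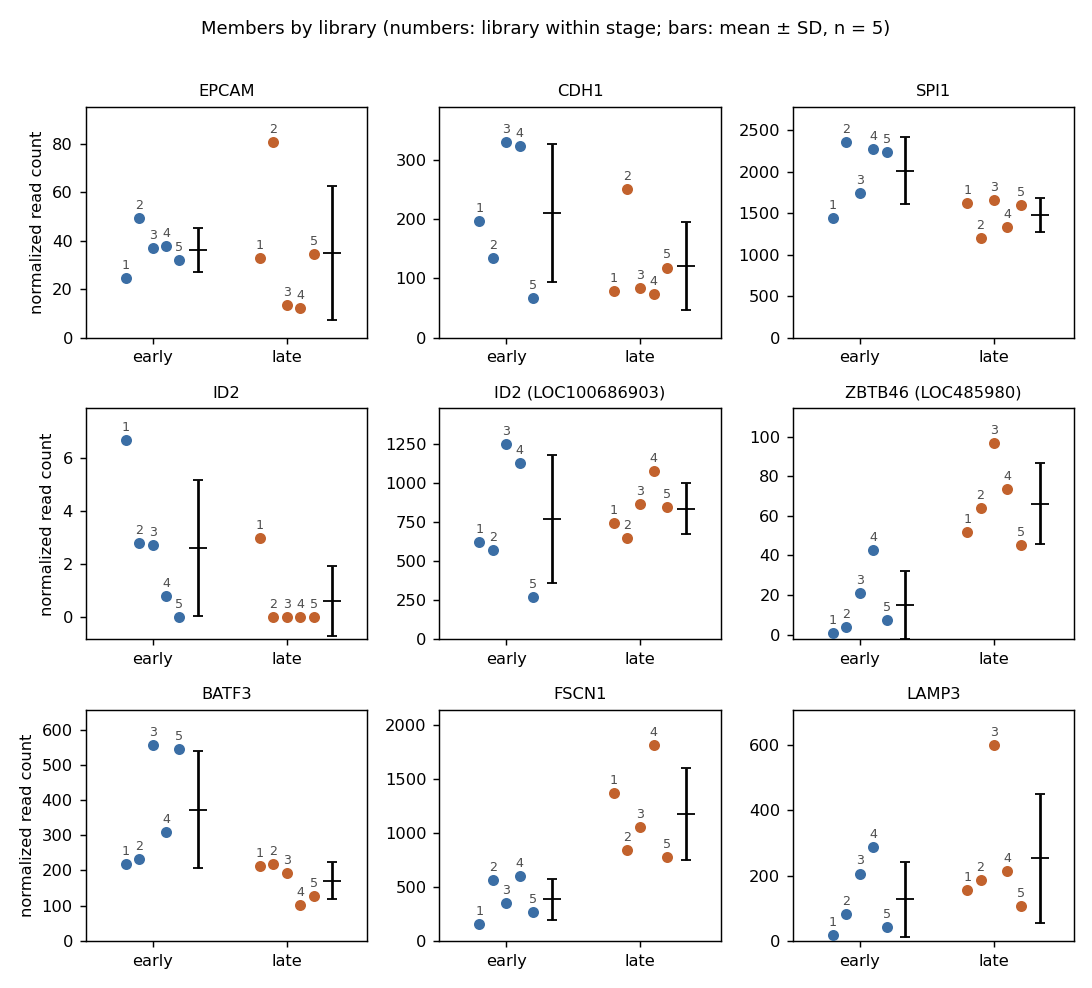
Normalized read count of each member (vertical axis) in the early (blue) and late (orange) libraries. Numbers name the library within its stage, and bars show mean ± SD (n = 5). Only FSCN1 and ZBTB46 (LOC485980) had late values that all lay above all early values.

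The comparison of late with early CCH asked which of these genes differed between the stages. None of the 6 members that passed the filter on low values under their own symbol was called by limma. A call required a log2 fold change (log2FC) no smaller than 1 in either direction together with a Benjamini-Yekutieli (BY) adjusted p up to 0.05. Among all 12397 genes tested, 2.17% were called (1.06% with a higher and 1.11% with a lower late level), with 48.7% of the calls higher in late CCH (64% with column total scaling). At an unadjusted p of at most 0.05, 3 of the 6 members passed (BATF3, FSCN1 and SPI1), against 30.9% of all genes. With the less strict Benjamini-Hochberg (BH) adjustment 2 members were called, FSCN1 higher and BATF3 lower, where 9.04% of all genes were called (5.53% higher and 3.52% lower). On recovered reads, edgeR called none of the 6 members (1.43% of all genes) and DESeq2 called FSCN1 alone (6.53% of all genes). Each log2FC below is, unless named otherwise, the late minus the early mean of log2(value + 1). The added 1 shrinks differences of genes with low values. Even so, this log2FC was larger in size than with edgeR and DESeq2 for ZBTB46 (LOC485980), EPCAM, LAMP3, ID2 (LOC100686903) and FSCN1. For CDH1 and BATF3 it was smaller, and for SPI1 it lay between them.

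The adhesion molecules were at most moderately expressed and did not separate the stages. EPCAM had normalized read counts of 24.8, 49.3, 37.1, 37.8 and 32.2 in early libraries 1 to 5 and of 32.8, 80.9, 13.6, 12.3 and 34.6 in late libraries 1 to 5. The late libraries held both the highest and the lowest values of the gene, and their SD of 27.8 was wider than the early SD of 8.98. Early CCH averaged 36.2 and late CCH 34.8, a log2FC of -0.35 (95% interval -1.35 to 0.66, BY-adjusted p = 1, limma). With edgeR and DESeq2, which weigh the reads of high libraries more, the log2FC was -0.04 and -0.06. These values rest on 198 early and 177 late reads in all.

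CDH1 had values of 198, 135, 331, 324 and 66.6 in early libraries 1 to 5. In late libraries 1 to 5 it had 78.6, 251, 83.3, 73.6 and 119. The stages overlapped, although 4 of 5 late libraries lay below the early median of 198. CDH1 averaged 211 ± 116 in early and 121 ± 74.9 in late CCH (SD, n = 5 each), a log2FC of -0.74 (95% interval -1.72 to 0.24, BY-adjusted p = 1, limma; exact permutation p = 0.19). E-cadherin is also made by keratinocytes. The sum of the 15 keratinocyte markers, all of them with reads, ranged from 1162 to 19525 in early and from 820 to 10354 in late libraries. Late library 2 had the highest late value of CDH1, EPCAM and the keratinocyte sum, and early library 5 had the lowest early value of CDH1 and of this sum. Other libraries departed from this order. Early library 3 had the highest CDH1 value, 331, with a sum of 3961. Early library 1 had the lowest early EPCAM value, 24.8, with a sum of 16505. The glandular epithelium markers, of which MUC1 had no read, summed to between 85.9 and 272 in early and between 65.4 and 274 in late libraries, with the highest sum in late library 2. The part of epidermis and glands in the CDH1 and EPCAM values was not tested.

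**Figure D2:**
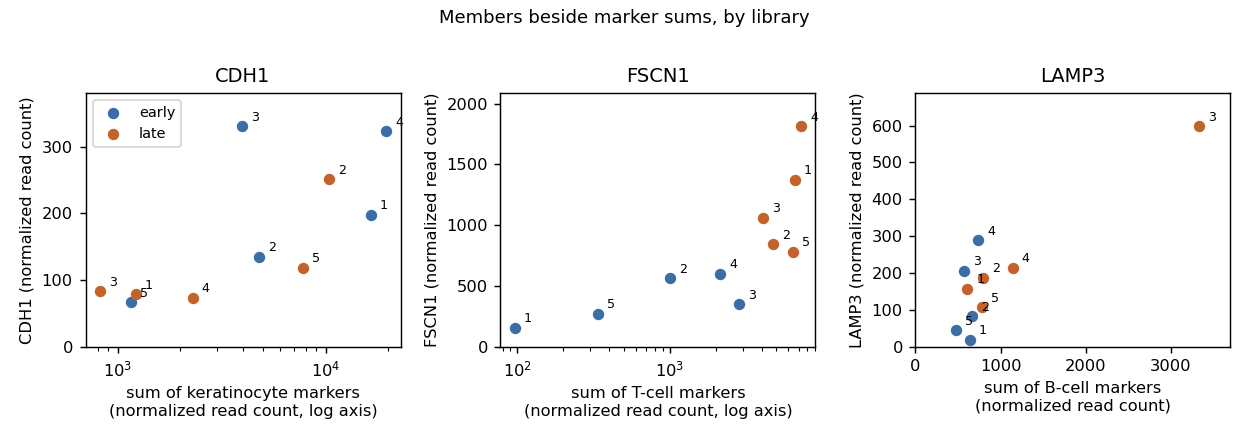
Normalized read count of CDH1, FSCN1 and LAMP3 (vertical axes) against the summed normalized read count of the keratinocyte, T-cell and B-cell markers (horizontal axes, logarithmic in the first and second panel), per library, with early in blue and late in orange. Late library 2 lies high for CDH1 and the keratinocyte sum, while early library 3 has the highest CDH1 value at a keratinocyte sum of 3961. Late library 3 has the highest LAMP3 value and the highest B-cell sum.

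SPI1, the gene of PU.1, was the most abundant member in both stages and varied least between tumors. Its normalized read counts were 1439, 2357, 1747, 2274 and 2242 in early libraries 1 to 5 and 1621, 1194, 1662, 1327 and 1597 in late libraries 1 to 5. All late values lay below the early median of 2242, and 4 of 5 early values exceeded every late value. Early library 1 was the exception and lay inside the late range. The mean was 2012 ± 399 in early and 1480 ± 207 in late CCH (SD, n = 5 each). This corresponded to a log2FC of -0.43 ± 0.17 (SE), with a 95% interval of -0.79 to -0.06 and a BY-adjusted p of 1 (limma). The exact permutation test of SPI1 alone gave p = 0.0556. PU.1 is made by macrophages and B cells as well. The 10 macrophage markers summed to between 2663 and 11752 in early and between 6269 and 11885 in late libraries, overlapping ranges, and the part of these cells in the SPI1 value was not tested.

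ID2 encodes a factor that binds E proteins and keeps them from DNA. The entry named ID2 was near the counting limit, with 14 early and 3 late reads in all, and it was not tested. Its values in early libraries 1 to 5 were 6.66, 2.79, 2.71, 0.788 and 0, and in the late libraries it had 3 reads in library 1 and none in the others, so that no fold change is given. The entry LOC100686903, by contrast, had 624, 573, 1254, 1129 and 272 in early libraries 1 to 5 and 746, 646, 864, 1081 and 848 in late libraries 1 to 5. The late libraries were tightly grouped inside the early range, with an SD of 162 against 410. Its log2FC was 0.29 (95% interval -0.46 to 1.05, BY-adjusted p = 1, limma), and without early library 5, the lowest, it was -0.03. A statement on ID2 thus depends on which entry is read, and the abundant entry is the one whose gene ID RefSeq assigns to ID2.

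The entry LOC485980, identified as ZBTB46 by its gene ID, separated the stages. Its normalized read counts were 0.952, 3.72, 20.8, 42.5 and 7.51 in early libraries 1 to 5 and 51.7, 63.7, 96.8, 73.6 and 45.1 in late libraries 1 to 5. Every late value lay above every early value, which 5.91% of all genes tested showed in this direction, although late library 5 exceeded early library 4 by little. The mean was 15.1 ± 17.1 in early and 66.2 ± 20.3 in late CCH (SD, n = 5 each). The log2FC of 2.78 ± 0.70 (SE, 95% interval 1.27 to 4.30) did not pass with a BY-adjusted p of 0.196 (limma), while the BH-adjusted p was 0.0196. The exact permutation p of this entry alone was 0.00794. Which cell types contributed to its value was not tested. The early value rests on 89 reads, and the log2FC was 2.19 with a pseudocount of 5 and 2.13 with edgeR and DESeq2. In the more recent dog assembly SLC2A4RG lies 1143 bases from ZBTB46, within the 2 kilobases by which genes were extended for counting. SLC2A4RG had 304 ± 67.1 in early and 384 ± 39 in late CCH (SD, n = 5 each), a log2FC of 0.36 (BY-adjusted p = 1, limma).

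BATF3 had the opposite direction. In early libraries 1 to 5 it had normalized read counts of 217, 234, 555, 310 and 544. In late libraries 1 to 5 it had 213, 218, 193, 102 and 128. Of the late values, 4 lay below every early value, and late library 2 with 218 just exceeded early library 1 with 217. BATF3 averaged 372 ± 166 in early and 171 ± 52.4 in late CCH (SD, n = 5 each), a log2FC of -1.06 ± 0.31 (SE, 95% interval -1.74 to -0.39). In limma its BY-adjusted p of 0.373 did not pass and its BH-adjusted p of 0.0372 did. The exact permutation p of BATF3 alone was 0.0159. Early libraries 3 and 5 carried the high end, and without either of them the log2FC was -0.89 and -0.90.

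FSCN1 showed the clearest difference of the members found by symbol. Its normalized read counts were 156, 563, 347, 601 and 269 in early libraries 1 to 5 and 1372, 844, 1060, 1815 and 781 in late libraries 1 to 5. No late value came below 781 and no early value above 601, so the stages did not overlap. The mean was 387 ± 191 in early and 1174 ± 426 in late CCH (SD, n = 5 each). This gave a log2FC of 1.69 ± 0.35 (SE, 95% interval 0.92 to 2.45) and a BY-adjusted p of 0.0865 (limma), which did not pass. The BH-adjusted p from limma was 0.00865 and the BY-adjusted p from DESeq2 was 0.00198. With edgeR the BY-adjusted p of FSCN1 was 0.128, and with robust moderation in limma it was 0.127. It lay between 0.0629 and 0.271 when any 1 library was left out (limma), without a call. The exact permutation p of FSCN1 alone was 0.00794. Fascin is also made by endothelial cells and fibroblasts. The 8 endothelial markers summed to between 536 and 992 in early and between 674 and 1327 in late libraries. The 8 fibroblast and matrix markers summed to between 8136 and 62242 in early and between 11455 and 36547 in late libraries. Both pairs of ranges overlapped, and the part of these cells in the FSCN1 value was not tested.

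LAMP3 varied most within a stage among the members that passed the filter under their symbol in early CCH. Its normalized read counts were 19.0, 81.9, 206, 288 and 44.0 in early libraries 1 to 5 and 157, 187, 599, 214 and 107 in late libraries 1 to 5. All late values exceeded the early median of 81.9, but early libraries 3 and 4 lay within the late range. LAMP3 averaged 128 ± 115 in early and 253 ± 197 in late CCH (SD, n = 5 each), a log2FC of 1.31 ± 0.67 (SE, 95% interval -0.14 to 2.75, BY-adjusted p = 1, limma). Without early library 1, the lowest, the log2FC was 0.78, and without late library 3 it was 0.93. Late library 3 also had the highest sum of the 9 B-cell markers, 3326, where the others lay between 480 and 1142. The T-cell sum was 96.2, 1003, 2856, 2148 and 339 in early libraries 1 to 5, with library 1 lowest, as for LAMP3. Late library 3 had the lowest late T-cell sum, 4105. The part of lymphocytes in the LAMP3 value was not tested. LAMP3, ZBTB46 and FSCN1 were ordered alike in part. In the late stage LAMP3 and ZBTB46 ranked the 5 libraries identically, from library 5 through 1, 2 and 4 to 3. In the early stage library 1 was lowest and library 4 highest for all 3 genes.

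**Figure D3:**
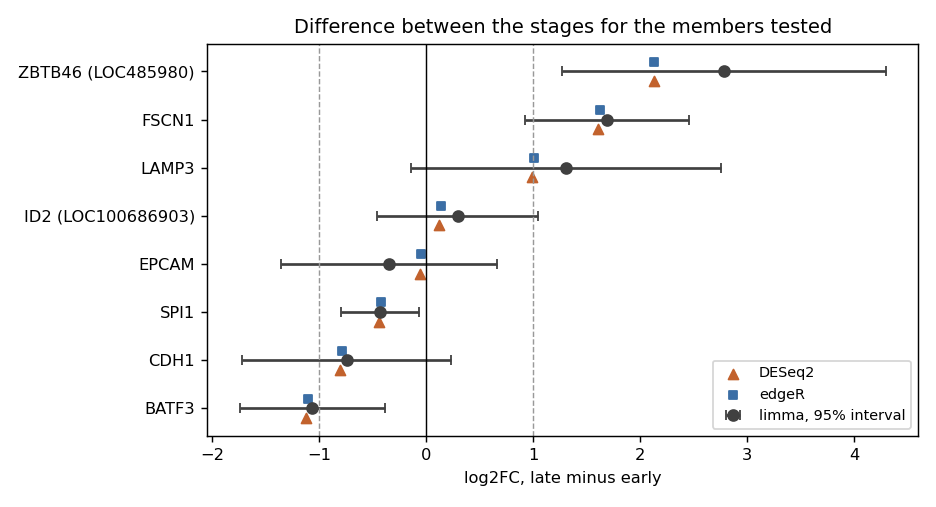
Log2FC (late minus early) of the 8 entries tested, with the 95% interval from limma (black), beside the estimates from DESeq2 (triangles) and edgeR (squares). Dashed lines mark a log2FC of 1 in size. ZBTB46 (LOC485980) and FSCN1 lie to the right, BATF3 lies to the left, and the interval of FSCN1 reaches down to 0.92.

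The levels were ordered between genes without division by length because QuantSeq 3′ counts 1 fragment per transcript. How reads are assigned to entries can still change this order, as the entries of ID2 show. In early CCH the order ran from SPI1 through ID2 (LOC100686903), FSCN1, BATF3, CDH1, LAMP3 and EPCAM to ZBTB46 (LOC485980). SPI1 exceeded ID2 (LOC100686903), and this entry exceeded FSCN1, in 5 of 5 early libraries, whereas FSCN1 exceeded BATF3 in 2 of 5 only. In late CCH FSCN1 moved to the second place, below SPI1 in 4 of 5 and above ID2 (LOC100686903) in 4 of 5 libraries, and BATF3 came after LAMP3, which exceeded it in 2 of 5 libraries. SPI1 lay above 99.1% of all genes with a read in early CCH, FSCN1 above 93.1% in early and 98.4% in late CCH, and EPCAM above 58% and 56.5%.

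Genes around the members were set beside them. Of 13 Langerhans cell markers, 9 were found and 7 passed the filter, and limma called 2 of these lower and 0 higher in late CCH, where 1.11% and 1.06% of all genes were called. Of the 7, 6 had a negative log2FC, and the median was -1.13, against -0.004 for all genes tested. In 3 of them the late values all lay below the early ones, which 6.05% of all genes tested showed. FCER1A, a chain of the IgE receptor, fell from a mean of 115 ± 75.1 to one of 17.5 ± 6.08 (SD, n = 5 each), a log2FC of -2.47 (BY-adjusted p = 0.0401, limma). FLT3, a growth factor receptor of dendritic cell precursors, fell from 292 ± 149 to 40.6 ± 27.8, a log2FC of -2.89 (BY-adjusted p = 0.0434, limma). With 1 library left out, FCER1A was called in 1 and FLT3 in 3 of the 10 fits. FCER1A was also called with edgeR and with robust moderation in limma. FLT3 was called with neither (BY-adjusted p = 0.0559 with edgeR and 0.0588 with robust moderation in limma). CD1A8, of the CD1a family that presents lipids, had a log2FC of -3.80 (BY-adjusted p = 0.171, limma), and its late values also lay below every early one. CD1A6 had a log2FC of -1.13 (BY-adjusted p = 0.939, limma), and DLA-DRA was the exception with 0.07 (BY-adjusted p = 1, limma). The sum of the 9 markers, most of it DLA-DRA, ranged from 9757 to 18681 in early and from 10721 to 16407 in late libraries.

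Of the 19 partners of E-cadherin and EpCAM at cell contacts, 17 passed the filter and none was called by limma, edgeR or DESeq2. At an unadjusted p of at most 0.05, 4 of the 17 were lower and 0 higher in late CCH, where 30.9% of all genes passed in either direction. Their median log2FC was -0.71, against -0.004 for all genes tested, and 12 of 17 had a negative log2FC. Of the 14 keratinocyte markers tested, 13 had a negative log2FC as well, with a median of -1.09, and their part in the partner values was not tested. The catenins link cadherins to actin. CTNND1 (p120 catenin) averaged 431 ± 80 in early and 243 ± 30.2 in late CCH, and its log2FC of -0.81 had a BY-adjusted p of 0.067 (limma). CTNNA1 (α-catenin) averaged 256 ± 46.6 and 154 ± 5.17, with a log2FC of -0.71 (BY-adjusted p = 0.103, limma). With DESeq2 the BY-adjusted p was 0.00172 for CTNND1 and 0.0056 for CTNNA1. Their log2FC of -0.82 and -0.73 with DESeq2 did not reach the threshold of size. With edgeR the BY-adjusted p was 0.0891 for CTNND1 and 0.106 for CTNNA1. These 2 genes were the partners whose late values all lay below the early ones, which 6.05% of all genes tested showed. CTNNB1 (β-catenin), with a log2FC of -0.13, and JUP (γ-catenin), with -1.05, overlapped between the stages (BY-adjusted p = 1 for both, limma). CDH3 (P-cadherin) had the lowest log2FC of the list with -1.50. At the other end stood VEZT with 0.27 and CLDN4, a tight junction protein, with 0.57, each of the 3 with a BY-adjusted p of 1 (limma).

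Of 26 further transcription factors of dendritic cells and their precursors, 24 passed the filter, 1 was called lower and 0 higher in late CCH by limma, where 1.11% and 1.06% of all genes were. At an unadjusted p of at most 0.05, 12 were higher and 4 lower, where 30.9% of all genes passed in either direction. With BH adjustment 6 were called higher and 2 lower, where 5.53% and 3.52% of all genes were. Their median log2FC was 0.56. The gene called was CBFB, whose protein is the shared partner of all RUNX factors. Its normalized read counts were 862, 1127, 967, 907 and 1041 in early libraries 1 to 5 and 489, 317, 340, 335 and 492 in late libraries 1 to 5. CBFB fell from a mean of 981 ± 106 to one of 394.7 ± 88 (SD, n = 5 each), and the log2FC was -1.33 ± 0.16 (SE). The BY-adjusted p was 0.00938 (limma), and leaving out any of the 10 libraries kept the call. RUNX1, with 10.4 ± 5.31 in early and 29.2 ± 15 in late CCH, had a log2FC of 1.38 (BY-adjusted p = 0.567, limma). The entry named RUNX2 had a log2FC of 0.35 (BY-adjusted p = 1, limma). A second entry, LOC449531, carries the gene ID that RefSeq gives to RUNX2 and is not described here.

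Relatives and partners of the other factors did not pass with BY adjustment in limma. DESeq2, which called 6.53% of all genes, called ID1, TCF4, BATF2, IRF8, RELB and NR4A3. ID1 averaged 212 ± 81.2 in early and 64.3 ± 30.8 in late CCH without overlap, a log2FC of -1.77 (BY-adjusted p = 0.0779, limma), while ID3 had a log2FC of 0.73 (BY-adjusted p = 1, limma). Of the E proteins that ID factors bind, TCF4 averaged 179 ± 107 in early and 527 ± 191 in late CCH, a log2FC of 1.64 (BY-adjusted p = 0.0905, limma). TCF12 had a log2FC of -0.57 and TCF3 one of -0.13, which turned to 0.03 with edgeR and 0.02 with DESeq2 (BY-adjusted p between 0.987 and 1, limma). BATF2, a relative of BATF3, had 60.1 ± 27.5 and 155 ± 49, a log2FC of 1.40 (BY-adjusted p = 0.133, limma), the direction opposite to BATF3. BATF itself had a log2FC of -0.03, which was 0.06 with column total scaling (BY-adjusted p = 1, limma). Of the interferon regulatory factors that BATF proteins pair with, IRF8 had a log2FC of 1.27 (BY-adjusted p = 0.217) and IRF4 one of 0.14 (BY-adjusted p = 1, limma). RELB, a maturation factor of the NF-κB family, had a log2FC of 1.16 (BY-adjusted p = 0.118, limma). NR4A3, a nuclear receptor linked to dendritic cell migration, had the highest log2FC of the list, 1.89 (BY-adjusted p = 0.204, limma), and all its late values lay above the early ones. The relatives of PU.1, SPIB and SPIC, did not pass the filter.

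Of 20 genes of dendritic cell maturation and migration, 18 passed the filter and 1 was called higher (1.06% of all genes) and 0 lower in late CCH by limma, with a median log2FC of 1.16. With BH adjustment 9 were called higher, where 5.53% of all genes were. The gene called was CD274, the inhibitory ligand PD-L1, which rose from a mean of 66.4 ± 46.4 to one of 272 ± 66.8 (SD, n = 5 each). The log2FC was 2.23 ± 0.38 (SE) and the BY-adjusted p was 0.0419 (limma). The call was kept in only 2 of the 10 fits with 1 library removed, where the adjusted p ranged from 0.012 to 0.122, and edgeR did not make it. CCR7, the receptor that guides mature dendritic cells to lymph nodes, had 39.0, 39.1, 14.5, 34.7 and 2.15 in early libraries 1 to 5 and 101, 81.8, 201, 82.8 and 73.4 in late libraries 1 to 5, without overlap. Its log2FC was 2.38 ± 0.63 (SE, BY-adjusted p = 0.252, limma), and its highest value was in late library 3, as for LAMP3. IDO1, which breaks down tryptophan, had the highest log2FC of the list, 4.21 (BY-adjusted p = 0.0526, limma). EBI3, a cytokine subunit, had 2.07 (BY-adjusted p = 0.153, limma) and did not overlap between the stages either. DESeq2 called CCR7, IDO1 and EBI3 (6.53% of all genes).

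The costimulatory ligands of this list had unlike values. CD80 averaged 113 ± 55.2 in early and 251 ± 71.2 in late CCH, a log2FC of 1.31 (BY-adjusted p = 0.483, limma). CD83, a surface marker of mature dendritic cells, had a log2FC of 1.09 (BY-adjusted p = 0.408, limma). CD86 had 1829, 2453, 1895, 2582 and 2099 in early libraries 1 to 5 and 1405, 1229, 1234, 1028 and 1289 in late libraries 1 to 5. Every late value of CD86 lay below every early one, and its adjusted p of 0.046 passed, but the log2FC of -0.81 ± 0.14 (SE, limma) did not reach the threshold of size. The adjusted p of CD86 lay between 0.0624 and 0.149 when any 1 library was left out and was 0.0624 with edgeR. ADAM8 had the lowest log2FC of the list, -1.12 (BY-adjusted p = 1, limma). CCR7, CD80, CD83 and CD274 are also made by lymphocytes. The T-cell and cytotoxic sums were higher in all late than in all early libraries, the B-cell sums overlapped, and the part of lymphocytes was not tested.

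**Figure D4:**
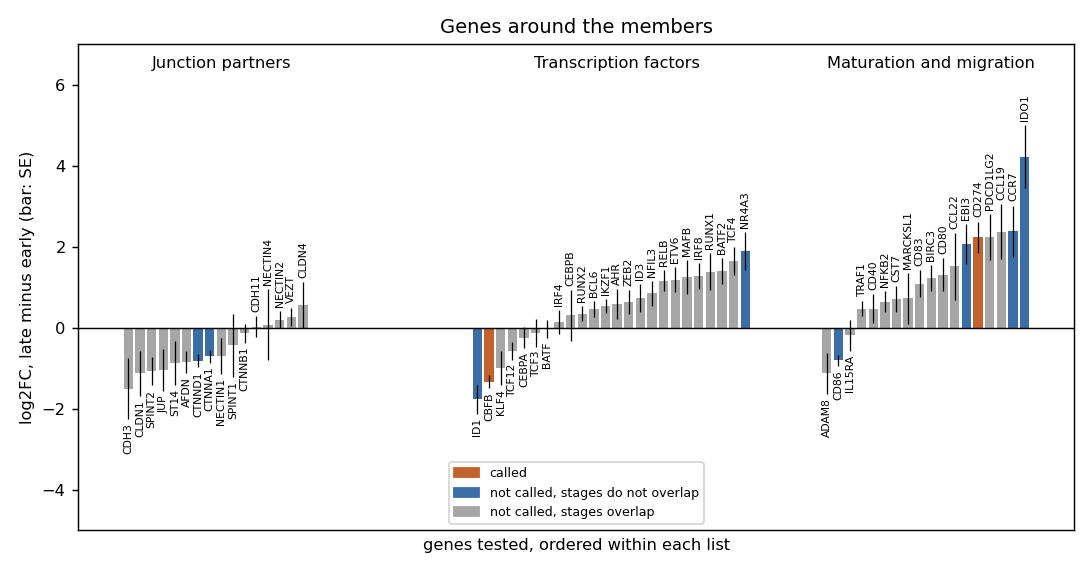
Log2FC (late minus early, error bars SE) of genes tested in the lists of junction partners (1 of them not drawn), transcription factors and maturation genes, ordered within each list. Orange bars were called (CBFB and CD274), blue bars were not called but had stages that did not overlap, and gray bars overlapped.

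For each entry tested, the genes most alike were sought by the Pearson r of log2 values over the 10 libraries after the stage means were taken out, among up to 7870 genes with a mean of at least 50. With so many candidates and 10 libraries, high r values arise readily, and they are given as a description. CDH1 was nearest to TNFRSF6B (r = 0.946), TMEM259 (0.938) and LOR (0.935), the last of which encodes loricrin of the cornified epidermis. LAMP3 was nearest to LY6E (0.963), MMP25 (0.960) and IFI44 (0.959), of which LY6E and IFI44 are interferon-induced. EPCAM was nearest to CDC34 (0.947), FAM129A (0.879) and CRIP2 (0.870), SPI1 to SLC48A1 (0.951), RAB10 (0.950) and ATF7 (0.938), and BATF3 to KDM6A (0.952), FAM98C (0.911) and ANKRD46 (0.876). FSCN1 was nearest to ST7 (0.928), VASH1 (0.924) and TRAF3 (0.922). ZBTB46 (LOC485980) was nearest to KIF21B (0.949), GEMIN7 (0.941) and TUBB2B (0.938), and ID2 (LOC100686903) to NASP (0.961), OPTN (0.943) and GALNT7 (0.940).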

How the data were processed

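QuantSeq 3′ libraries of 10 FFPE samples of CCH were analysed, 5 of each stage. According to the methods of the study, reads were trimmed with Cutadapt, aligned with STAR to CanFam3.1 and counted with featureCounts, with a second count of unassigned reads on genes extended by 2 kilobases and with reads of several mapping places shared evenly. The deposited table holds a normalized signal, counts divided by 1 size factor per library, and 100% of the 166096 values above 0 used here were whole reads within a tolerance of 0.001 of a read. Of its 21 value columns, 11 match no sample here and were not used. Column names show only the stage, so library numbers are names and DV200 could not be linked to libraries. Replicates are different dogs.

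Values were analysed with limma 3.58.1 (trend) in R 4.3.3 on log2(value + 1), without covariates, for genes that reached a value of 10 in 5 or more libraries. Calls needed a BY-adjusted p of at most 0.05 over all 12397 genes and a log2FC no smaller than 1 in either direction. EdgeR 4.0.16 (quasi-likelihood) and DESeq2 1.42.0 (Wald) were run on recovered reads, and other scalings, pseudocounts, filters and adjustments, and fits without each library, were alternatives. Single genes and marker sums were also compared by exact two-sided permutation (252 assignments, unadjusted). On simulated counts for the 12397 genes, limma called 8.96%, 61.2% and 84.8% of genes changed by a log2FC of 1, 2 and 3 in size. Only 67, 67 and 66 genes were changed and 12197 were left unchanged. The BY adjustment depends on how many genes differ, so these shares need not hold for the members. A log2FC of 1 also lies at the threshold of size itself. The members and lists were chosen with earlier results of these data known. All members were named. From each list the called genes and the 2 highest and lowest log2FC were named by rule (1 junction partner is counted but not reported here), and catenins, relatives and partners of members, EBI3, CD80, CD83 and RELB, and 5 Langerhans cell markers, were added after their values were seen. Gene IDs and neighbors were taken from the RefSeq table of UU_Cfam_GSD_1.0. How reads were assigned to strands is not given in the sources used here. The intervals of the log2FC come from limma and rest on the spread between the libraries within a stage. Limits from reads cover counting error only.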

Additional observations from a re-analysis of the deposited data

Results flagged for a closer look

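In 38 groups of 5 libraries (each member entry and each marker sum in each stage), the gap of the highest or lowest library to the next one was taken as a share of the range. The critical value of 0.71 was exceeded in 5 groups. Chance would give about 1.9 if the values were normally distributed, which was not tested. The groups share libraries, so that they are not independent. CDH1 stood apart in late library 2 with a normalized read count of 251, a relative gap of 0.747. LAMP3 stood apart in late library 3 with 599, a relative gap of 0.783. The sum of the B-cell markers stood apart in the same library with 3326 (0.803), and the sum of the neutrophil markers in late library 2 with 9433 (0.864). The entry named ID2 had 2.98 in late library 1 and 0 in the other late libraries, a value that rests on 3 reads.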

How the results depend on the processing

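No paired analysis was possible because column names give a stage without replicate numbers, and the stages come from different dogs. No member entry was called in any of the 10 fits that left out 1 library, under the scalings, pseudocounts and filters, with robust moderation or with edgeR. Of the 6 members tested under their symbol, BH adjustment called 2 and DESeq2 called 1, and BH also called ZBTB46 (LOC485980). Over all genes, BH called 685 higher and 436 lower, DESeq2 480 and 330, and edgeR 81 and 96. Without 1 library the numbers lay between 18 and 144 higher and between 29 and 153 lower. Of the transcription factors BH and DESeq2 called 8 each, and fits without 1 library 1 to 2. Of the maturation genes BH called 9, DESeq2 5, edgeR 0, and a pseudocount of 5 and column total scaling 2 each, while fits without 1 library called 0 to 2. The sign turned for TCF3 (0.016 with DESeq2, 0.032 with edgeR, -0.40 to 0.10 without 1 library, above 0 without late library 2), for BATF (0.063 with column totals, -0.13 to 0.058 without 1 library), and without 1 library for CTNNB1 (-0.26 to 0.024), IRF4 (-0.15 to 0.37), DLA-DRA (-0.0399 to 0.18) and ID2 (LOC100686903, -0.032 to 0.52, below 0 without early library 5). BH is the more lenient adjustment by construction, and the cause of the other changes was not tested.

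EPCAM, the entry named ID2 and the early values of ZBTB46 rest on few reads, and values under about 3 reads cannot be told from absence. The interval of EPCAM includes a log2FC of -1, so that a difference of that size is not excluded.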
